A study of Mus musculus with 21 samples.

Results

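The genes described are 8 TNF superfamily ligands that T cells are known to make: Tnf, Cd40lg, Lta, Ltb, Tnfsf8, Tnfsf11, Tnfsf14 and Fasl. They were matched by gene name in the normalised expression table, and 8 of 8 were found. All 8 were also among the 15300 genes with at least 10 counts in all, out of 47643 genes in the count table. Splenic CD4+ T cells of Tg4 Tiger Nr4a3-Tocky mice were sorted, and their RNA was measured by 3′ mRNA sequencing. These mice carry a transgenic T cell receptor (TCR) for a myelin basic protein (MBP) peptide, an Il10-GFP reporter (Tiger) and a fluorescent Timer protein under the control of Nr4a3, a gene switched on by TCR signalling. The [4Y] MBP peptide was injected under the skin in saline, without adjuvant, at 0.8 µg or at 80 µg, and cells were taken at 4, 12 or 24 h. The control group was untreated, and all 7 groups had the same genotype and 3 mice each, giving 21 libraries.

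Several features limit these groups. Per the study's methods, cells with new (blue) Timer protein only were sorted at 4 h, those with new and mature (red) protein at 12 h and those with mature protein only at 24 h. The effects of time and of this gate cannot be told apart. The study's methods name no Timer gate for the control, so in comparisons with it antigen and a difference in gate cannot be told apart. The ages of the mice were not given in the sources used here. The transgene fixes 1 receptor specificity in the responding cells. In bulk samples such as these, fewer cells of a type and less RNA per cell cannot be told apart.

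TNF superfamily ligands are trimeric proteins, most of them anchored in the membrane, that bind receptors of the TNF receptor superfamily on neighbouring cells. Receptors with a death domain can start apoptosis, and receptors that bind TRAF adaptors activate NF-κB and MAP kinases. On CD4+ T cells the ligands are induced after TCR engagement and carry signals to B cells, dendritic cells, stromal cells and other T cells.

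Tnf, Lta and Ltb lie next to each other on chromosome 17, and their promoters and untranslated regions are shown here because Ltb had another course in these data than its neighbours Tnf and Lta. In GENCODE vM21 on GRCm38, Ltb is at chr17:35194439-35196320 on the plus strand, Tnf at chr17:35199381-35202007 on the minus strand and Lta at chr17:35203165-35205351 on the minus strand. The gaps are 3060 bases between Ltb and Tnf and 1157 bases between Tnf and Lta, with 0 other annotated genes between Ltb and Lta. The other members lie apart, with Cd40lg at chrX:57212143-57224042 on the plus strand, Tnfsf8 at chr4:63831308-63861347, Tnfsf11 at chr14:78277445-78308043, Tnfsf14 at chr17:57189492-57194177 and Fasl at chr1:161780689-161788495, all 4 on the minus strand. The exons of the 8 genes overlapped no other annotated gene.

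RefSeq promoters (GRCm38.p6, 250 bases before to 50 after the start) were matched for 7 of the 8 members, Cd40lg being the exception, and those of the 3 neighbours are printed 5′ to 3′ on the strand of the gene. Capitals mark GGAAA, the core bound by NFAT, on either strand (TTTCC on the other), and in Ltb also the NF-κB consensus, which is read on the opposite strand and overlaps GGAAA there. The windows are chr17:35201958-35202257 (minus strand) for Tnf, chr17:35205302-35205601 (minus strand) for Lta and chr17:35194257-35194556 (plus strand) for Ltb.
Tnf: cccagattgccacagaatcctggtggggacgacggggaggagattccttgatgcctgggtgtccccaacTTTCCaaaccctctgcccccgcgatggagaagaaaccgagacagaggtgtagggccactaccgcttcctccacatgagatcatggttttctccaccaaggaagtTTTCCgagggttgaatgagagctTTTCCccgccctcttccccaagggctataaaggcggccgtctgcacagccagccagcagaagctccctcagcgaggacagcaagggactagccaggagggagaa
Lta: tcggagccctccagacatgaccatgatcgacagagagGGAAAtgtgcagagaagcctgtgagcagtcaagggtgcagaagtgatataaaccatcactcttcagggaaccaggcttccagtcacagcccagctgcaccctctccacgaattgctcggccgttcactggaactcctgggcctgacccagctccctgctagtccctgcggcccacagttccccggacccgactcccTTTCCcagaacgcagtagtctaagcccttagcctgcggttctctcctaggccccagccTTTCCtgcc
Ltb: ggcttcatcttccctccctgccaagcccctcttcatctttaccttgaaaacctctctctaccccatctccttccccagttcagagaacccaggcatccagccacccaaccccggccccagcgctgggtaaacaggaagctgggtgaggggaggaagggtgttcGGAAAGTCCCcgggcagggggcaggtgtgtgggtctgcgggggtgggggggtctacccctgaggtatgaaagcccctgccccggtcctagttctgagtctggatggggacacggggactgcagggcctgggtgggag
GGAAA was found 3 times in the Tnf window, 3 times in that of Lta and once in that of Ltb. Of 32851 RefSeq promoters of this length, 61.3% hold it at least once, and the share with 3 or more was not computed. The NF-κB consensus of Ltb begins at base -87 from the start, and 5.8% of promoters hold a match. TATAAA begins at base -29 in Tnf and at base -167 in Lta, and is held by 13.6% of promoters on either strand. The AP-1 motif TGANTCA was found in 1 of the 7 windows, that of Tnfsf14 at base -160, and 7.81% of all promoters hold it. These matches describe the letters of the windows only.

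The 3′ untranslated region (3′ UTR) is the stretch that 3′ libraries read, and the pentamer ATTTA is the core of AU-rich elements, which are known to shorten the life of cytokine mRNAs. The longest annotated 3′ UTR of Tnf (764 bases) held ATTTA 8 times, and 1.08% of 20996 genes held as many or more per kilobase. The counts were 3 in Lta (572 bases), 2 in Cd40lg (455 bases), 10 in Tnfsf8 (2799 bases), 6 in Tnfsf11 (1131 bases), 1 in Tnfsf14 (1019 bases), 1 in Fasl (887 bases) and 0 in Ltb (174 bases), while 65% of all genes held at least 1. The nonamer TTATTTATT, held by 7.6% of genes, was found 5 times in Tnf and 1 time in Lta, overlapping ATTTA, and in no other member. The densest 30 bases of Tnf (bases 437 to 466 of its 3′ UTR) and the matching window of Lta (bases 300 to 329) show the difference, with ATTTA in capitals.
Tnf 3′ UTR: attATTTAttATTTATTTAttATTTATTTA
Lta 3′ UTR: tATTTAtggagagaaaagttaagttATTTA
The window of Tnf held 5 copies and that of Lta 2.

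Library totals ranged from 2352800 to 6244279 counts with a median of 3571896, and 3 counts corresponded to 1.85 to 4.28 normalised counts (counts divided by the DESeq2 size factor of the library). Nr4a3, the gene that drives the Timer, had a mean of 26.1 normalised counts in the control group and of 3536 (0.8 µg) and 3299 (80 µg) at 4 h, 562 and 154 at 12 h, and 54.2 and 9.09 at 24 h. Replicate 3 of the 0.8 µg 12 h group stood apart from its group, with a chi-square per degree of freedom of 13.4 and 13.2 against replicates 1 and 2, which differed from each other by 3.28. Less strongly, so did 80 µg 12 h replicate 2 (8.12 and 8.83, with 4.63 between the others). The same held for 0.8 µg 24 h replicate 3 (6.33 and 7.29, with 4.05 between the others). Calls that change without 0.8 µg 12 h replicate 3 are given with and without it. The share of counts in the gene Gm42418 was 24.0 to 24.7% in the control. At 4 h it was 18.1 to 22.8% (0.8 µg) and 19.7 to 20.7% (80 µg). At 12 h after 0.8 µg it was 25.7% in replicate 3, against 17.0 and 18.2% in replicates 1 and 2, and after 80 µg 19.9 to 24.5%. At 24 h it was 23.3 to 26.1% and 26.1 to 27.8%. The part of this share in the results was not tested. The 7 T cell markers (Cd3d, Cd3e, Cd3g, Cd4, Cd5, Cd28 and Lck) had counts in all 7 groups.

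The control libraries were used to ask which ligand genes changed after antigen, and in which direction. At 4 h, 7 of the 8 ligand genes were higher than in the control at both doses, and their groups did not overlap. The largest rises were in Tnfsf14 and Tnf, and the smallest in Tnfsf8 and Cd40lg at the 0.8 µg dose. Ltb was the exception, being lower after 80 µg. A gene was called when its adjusted p in DESeq2 was under 0.05 and its shrunken log2 fold change was beyond 1 in either direction. At 0.8 µg, 7 members were called higher and 0 lower, where 17.3% of all genes tested were called higher and 23.4% lower. Ltb was the 1 member below the control at an unadjusted p under 0.05 there, in DESeq2 and in edgeR, and edgeR also called 0 lower. At 80 µg, 7 members were called higher and 1 lower, against 18.4% and 25.1% of all genes. The median log2 fold change of the 8 members was 3.29 at 0.8 µg and 2.68 at 80 µg, and that of all genes tested was -0.13 and -0.15. The comparisons with the control share the 3 control libraries, so the doses are not independent of each other here.

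**Figure D1:**
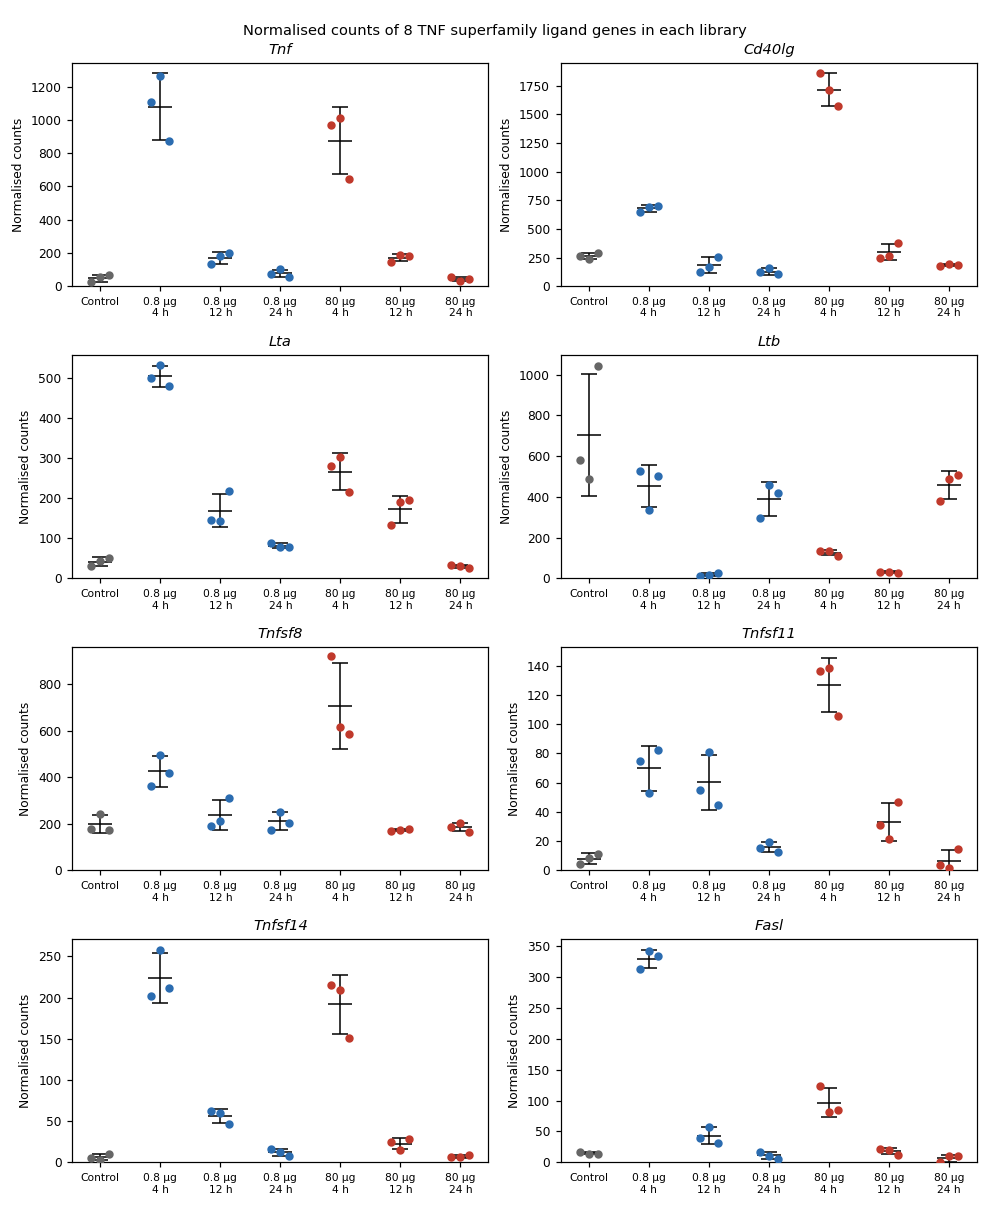
Normalised counts of each of the 8 ligand genes (vertical axis, linear scale from 0) in each library of the 7 groups (horizontal axis), with 1 panel per gene. Points are libraries, long bars are group means and whiskers are 1 SD (n = 3). In 7 panels the highest mean of each dose is at 4 h, and in the Ltb panel the points of the 12 h groups are the lowest, between 10.8 and 33.0 normalised counts.

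Fewer members differed from the control later. At 12 h after 0.8 µg, 5 members were called higher (17.2% of all genes) and 1, Ltb, lower (20.5%). At 12 h after 80 µg, 4 were called higher (17.8% of all genes) and Ltb lower (20.1%), and the member called at 0.8 µg but not at 80 µg was Fasl. At 24 h after 0.8 µg, 0 were called higher (11.5% of all genes) and 1, Cd40lg, lower (5.84%). That count was 0 to 3 when 1 library was left out: Cd40lg was no longer called without control replicate 3 (log2 fold change -0.95), 0.8 µg 24 h replicate 1 (-0.99) or 0.8 µg 24 h replicate 3 (-0.89). Lta was called without control replicate 2 (1.01), control replicate 3 (1.13), 0.8 µg 24 h replicate 2 (1.01) or replicate 3 (1.02). Ltb was called without control replicate 2 (-1.02), and Tnfsf14 without control replicate 3 (1.29) or 0.8 µg 24 h replicate 3 (1.20). At an unadjusted p under 0.05, DESeq2 gave 4 members higher there and edgeR also 4, of which edgeR called 1, Lta. At 24 h after 80 µg, 0 members were called in either direction (12.3% and 7.91% of all genes). At an unadjusted p under 0.05, 0 members were higher and 3 lower there, both in DESeq2 and in edgeR, which called 0. Fasl was called lower without 80 µg 24 h replicate 2 (-1.14) or replicate 3 (-1.29).

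**Figure D2:**
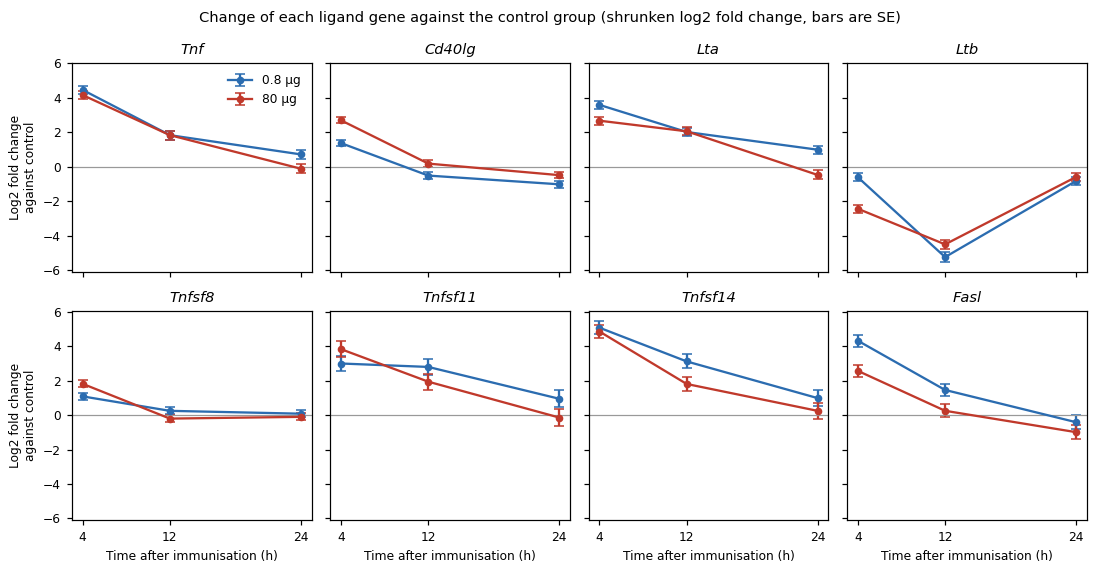
Shrunken log2 fold change of each ligand gene against the control group (vertical axis) at 4, 12 and 24 h (horizontal axis, h), for 0.8 µg (blue) and 80 µg (red), with whiskers of 1 SE. Both lines are highest at 4 h in 7 panels, while those of Ltb reach -5.25 and -4.51 at 12 h and lie at -0.83 and -0.60 at 24 h.

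Tnf encodes tumour necrosis factor, the inflammatory cytokine that gives the family its name. It had 24.7, 52.7 and 65.7 normalised counts in the control libraries. The 4 h values were 1106, 1266 and 871 after 0.8 µg and 971, 1010 and 646 after 80 µg. The 6 immunised libraries were all far above the control, and the doses overlapped. The log2 fold change against the control was 4.46 ± 0.25 (SE, n = 3, adjusted p = 5.99e-69) at 0.8 µg and 4.15 ± 0.25 (adjusted p = 3.76e-60) at 80 µg. At 12 h the values were 131, 181 and 202 (0.8 µg) and 145, 186 and 182 (80 µg), again overlapping and above the control, with a log2 fold change of 1.83 at each dose. At 24 h they were 74.0, 102 and 57.8 (0.8 µg) and 54.8, 32.4 and 44.4 (80 µg). All 3 values after 80 µg were then below those after 0.8 µg, and they lay within the range of the control.

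Lta encodes lymphotoxin-alpha, which is secreted as a trimer and binds the same receptors as TNF. Its control values were 29.9, 42.6 and 51.4 normalised counts. At 4 h there were 501, 532 and 480 after 0.8 µg and 280, 303 and 215 after 80 µg, so every library of the lower dose was above every library of the higher dose. Against the control, the log2 fold change was 3.59 ± 0.224 (SE, n = 3, adjusted p = 1.3e-55) at 0.8 µg and 2.67 ± 0.226 (adjusted p = 7.99e-31) at 80 µg. At 12 h the doses overlapped, with 146, 144 and 217 after 0.8 µg and 133, 190 and 194 after 80 µg. At 24 h they separated again, with 87.6, 79.3 and 78.5 after 0.8 µg and 32.9, 30.9 and 24.7 after 80 µg, the latter within or below the control range.

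Ltb encodes lymphotoxin-beta, the membrane protein that holds lymphotoxin-alpha at the cell surface in a heterotrimer and binds the lymphotoxin-beta receptor of stromal cells. Its mean was highest in the control, where it had 579, 487 and 1045 normalised counts. The 4 h values were 525, 337 and 505 after 0.8 µg, overlapping the control, and 135, 132 and 111 after 80 µg, all below it. The log2 fold change against the control was -0.61 ± 0.232 (SE, n = 3, adjusted p = 0.0171, not past the fold threshold) at 0.8 µg and -2.44 ± 0.24 (adjusted p = 2.21e-23) at 80 µg. At 12 h it was lowest, with 10.8, 15.0 and 25.8 after 0.8 µg and 30.1, 33.0 and 23.3 after 80 µg. The log2 fold change was then -5.25 ± 0.293 (adjusted p = 4.74e-68) at 0.8 µg and -4.51 ± 0.266 (adjusted p = 5.86e-62) at 80 µg. At 24 h it had 298, 456 and 418 (0.8 µg), all below the control, and 380, 490 and 507 (80 µg), overlapping it. These values were lower than the control by the adjusted p but not past the fold threshold (-0.83 ± 0.232, adjusted p = 0.00155, and -0.60 ± 0.231, adjusted p = 0.0266). Over 15 alternatives these adjusted p ranged from 0.000124 to 0.0973 and from 0.00356 to 0.474, and that at 4 h after 0.8 µg from 0.00184 to 0.403. Each was highest without control replicate 3, where the log2 fold changes were -0.44, -0.20 and -0.21 in this order. From 12 to 24 h Ltb rose by 4.41 ± 0.294 and 3.91 ± 0.266 on the log2 scale (adjusted p = 7.21e-48 and 1.75e-46). It was the only member called higher at 24 h than at 12 h at either dose.

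B cells are also known to express Ltb, so the markers of B cells were set beside it. Per the study's methods the cells were stained for CD4 and, in the immunised groups, gated on the Timer, a sort meant to leave B cells and CD8 T cells out. The summed level of the 8 B cell markers, all 8 measured, was 134 to 302 normalised counts in the control, 55.0 to 135 (0.8 µg) and 40.7 to 57.9 (80 µg) at 4 h, 24.7 to 141 and 7.78 to 72.2 at 12 h, and 111 to 139 and 30.2 to 80.0 at 24 h. Cd79a was at 0 in 3 of the immunised groups and Fcrla in 1. Like Ltb, the B cell sum had its highest value in the control and the lowest value of each dose at 12 h. Its 12 h range overlapped those at 4 h and at 24 h of the same dose, unlike that of Ltb. The highest values were in different control libraries (Ltb in replicate 3, the B cell sum in replicate 1). The lowest were in different libraries after 0.8 µg (replicates 1 and 3) and in the same library after 80 µg (replicate 3). The T cell markers also moved with dose and time. Their summed level was 7276 to 7829 in the control, 3955 to 4417 (0.8 µg) and 2022 to 2263 (80 µg) at 4 h, 2814 to 3182 and 3521 to 3551 at 12 h, and 6127 to 6862 and 7517 to 7727 at 24 h. Cd4 itself fell with dose at 4 h, from a mean of 845 to 220 normalised counts (log2 fold change -1.93 ± 0.143, n = 3, adjusted p = 8.02e-39). Cd3e also fell, from 663 to 327 (-1.025 ± 0.12, adjusted p = 1.26e-15). The part of these shifts in the ligand results was not tested.

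**Figure D3:**
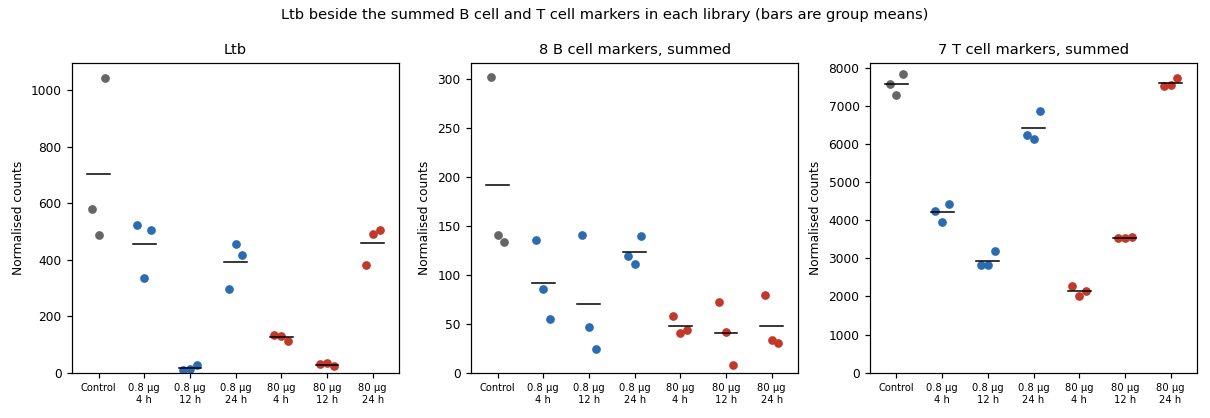
Normalised counts (vertical axes, linear scale from 0) of Ltb, of the 8 B cell markers summed and of the 7 T cell markers summed in each library of the 7 groups. Points are libraries and bars are group means. The 12 h points are the lowest of the Ltb panel, the lowest B cell sum of each dose is also at 12 h (24.7 after 0.8 µg and 7.78 after 80 µg), and the T cell sum is lowest after 80 µg at 4 h (2022 to 2263).

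Cd40lg encodes CD40 ligand, through which helper T cells license dendritic cells and drive B cell responses. It had 265, 233 and 288 normalised counts in the control. At 4 h it had 644, 694 and 701 after 0.8 µg and 1859, 1709 and 1570 after 80 µg, 3 separate levels with no overlap. The log2 fold change against the control was 1.37 ± 0.184 (SE, n = 3, adjusted p = 6.36e-13) and 2.69 ± 0.182 (adjusted p = 3.33e-48). At 12 h the values were 124, 168 and 258 (0.8 µg) and 246, 265 and 380 (80 µg), and at 24 h 123, 157 and 103 (0.8 µg) and 176, 194 and 186 (80 µg). At 12 h after 0.8 µg the log2 fold change against the control was -0.52 with all libraries and -0.82 without replicate 3 of that group. The 24 h values of both doses were below every control library, and only the difference at 0.8 µg passed the fold threshold (log2 fold change -1.02 ± 0.194, adjusted p = 1.21e-06). Whether that call holds depends on single libraries, as given above.

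Tnfsf8 encodes CD30 ligand, which binds CD30 on activated lymphocytes. It had 177, 243 and 176 normalised counts in the control, and at 4 h 362, 495 and 420 after 0.8 µg and 922, 616 and 588 after 80 µg. The doses did not overlap, and both were above the control, by a log2 fold change of 1.08 ± 0.198 (SE, n = 3, adjusted p = 1.82e-07) and 1.81 ± 0.196 (adjusted p = 1.71e-19). Without 0.8 µg 4 h replicate 2 the former was 0.97 and below the fold threshold. At 12 h it had 190, 212 and 310 (0.8 µg) and 168, 172 and 178 (80 µg), and at 24 h 174, 252 and 205 (0.8 µg) and 187, 202 and 166 (80 µg). These later values overlapped the control, and the comparisons with it did not pass the test (adjusted p of 0.313 to 0.803).

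Tnfsf11 encodes RANKL, the ligand of RANK on osteoclast precursors and dendritic cells. It was near the floor of detection in the control, at 4.12, 8.11 and 11.4 normalised counts. At 4 h it had 74.7, 52.7 and 82.0 after 0.8 µg and 137, 138 and 105 after 80 µg, with no overlap. At 12 h it had 54.9, 81.2 and 44.6 after 0.8 µg, close to the 4 h values of that dose, and 31.1, 21.3 and 46.7 after 80 µg. From 4 to 12 h the log2 fold change was -0.20 ± 0.379 (SE, n = 3, adjusted p = 0.725) at 0.8 µg and -1.89 ± 0.38 (adjusted p = 5.2e-06) at 80 µg. At 24 h the values were 15.6, 19.6 and 12.4 (0.8 µg) and 3.29, 1.47 and 14.8 (80 µg), where 1 library of the higher dose was within the range of the lower dose.

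Tnfsf14 encodes LIGHT, which binds HVEM and the lymphotoxin-beta receptor. It had 5.15, 3.04 and 9.99 normalised counts in the control, near the floor. At 4 h it had 202, 258 and 212 after 0.8 µg and 215, 209 and 151 after 80 µg, which overlapped. The rise was the largest of the 8 members at both doses, with a log2 fold change of 5.07 ± 0.394 (SE, n = 3, adjusted p = 1.09e-32) and 4.85 ± 0.394 (adjusted p = 4.14e-30). At 12 h it had 61.8, 60.2 and 47.0 after 0.8 µg and 24.7, 15.4 and 28.2 after 80 µg, a clear gap between the doses. At 24 h the values were 16.5, 12.1 and 8.26 (0.8 µg) and 6.57, 5.89 and 8.63 (80 µg), which overlapped each other and the control.

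Fasl encodes Fas ligand, which induces apoptosis through the death receptor Fas. It had 17.5, 14.2 and 14.3 normalised counts in the control. At 4 h it had 313, 341 and 333 after 0.8 µg and 124, 81.4 and 84.0 after 80 µg, so the lower dose gave the higher level in every library. The log2 fold change against the control was 4.31 ± 0.335 (SE, n = 3, adjusted p = 1.2e-35) and 2.56 ± 0.341 (adjusted p = 5.71e-13). At 12 h it had 40.2, 57.9 and 31.7 (0.8 µg) and 21.9, 20.5 and 12.6 (80 µg), and at 24 h 17.5, 10.3 and 6.19 (0.8 µg) and 0, 9.57 and 10.5 (80 µg). The lower dose was still above the higher at 12 h, and by 24 h the doses overlapped, with every 80 µg library below the control.

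The next comparison asked how antigen dose shaped the ligand genes among cells sorted through the same Timer gate. Nr4a3 itself was not called between the doses at 4 h (log2 fold change -0.10 ± 0.36, adjusted p = 0.938). It was called lower after 80 µg at 12 h (-1.80 ± 0.366, adjusted p = 5.79e-05) and at 24 h (-2.315 ± 0.424, adjusted p = 6.25e-06). The part of this in the ligand values was not tested. At 4 h the dose acted in both directions. Cd40lg was higher after 80 µg than after 0.8 µg, while Ltb and Fasl were lower. The log2 fold change was 1.32 ± 0.176 (SE, n = 3, adjusted p = 4.41e-12) for Cd40lg, -1.83 ± 0.241 (adjusted p = 2.14e-12) for Ltb and -1.75 ± 0.273 (adjusted p = 7.18e-09) for Fasl. So 1 member was called higher, where 3.12% of all genes were, and 2 were called lower, where 2.74% were. Tnfsf8 (0.73 ± 0.19, adjusted p = 0.00203, in a range of 0.00101 to 0.0958 over 15 alternatives) and Lta (-0.92 ± 0.186, adjusted p = 2.11e-05) passed the adjusted p but not the fold threshold, and Lta passed both without 80 µg 4 h replicate 2 (-1.02). The values of Tnf (-0.30 ± 0.218, adjusted p = 0.473), Tnfsf11 (0.83 ± 0.373, adjusted p = 0.153) and Tnfsf14 (-0.22 ± 0.234, adjusted p = 0.676) did not pass the test. The median of the 8 members was -0.26, and that of all genes tested was -0.02. The summed level of the 7 myeloid markers measured (of 8) was 17.3 to 116 normalised counts after 0.8 µg and 2.57 to 19.7 after 80 µg at 4 h, with Itgam at 0 after 80 µg. The ranges overlapped, and their part in the 4 h dose values was not tested.

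At 12 h, Tnfsf14 and again Fasl differed between the doses. Tnfsf14 (log2 fold change -1.31 ± 0.289, SE, n = 3, adjusted p = 0.000327) and Fasl (-1.21 ± 0.329, adjusted p = 0.00684) were lower after 80 µg, with no overlap between the doses. The count was 0 higher (1.83% of all genes) and 2 lower (0.960%). At an unadjusted p under 0.05, DESeq2 and edgeR each gave 2 members higher, Cd40lg and Ltb, and edgeR also called 0 higher. Cd40lg was higher by the adjusted p alone (0.69 ± 0.187, adjusted p = 0.0061, in a range of 1.63e-06 to 0.139 over 15 alternatives). It did not pass the adjusted p without 0.8 µg 12 h replicate 1 (0.48) or 2 (0.63) or 80 µg 12 h replicate 3 (0.48), or when only these groups were fitted (0.57). Without 0.8 µg 12 h replicate 3, the library that stood apart most, the call count was 4, with Cd40lg at 1.00 and Ltb at 1.02 added to Tnfsf14 at -1.41 and Fasl at -1.37. Fasl was no longer called without 0.8 µg 12 h replicate 2 (-0.93, adjusted p = 0.144) or 80 µg 12 h replicate 3 (-1.01, adjusted p = 0.067), and its adjusted p ranged from 0.00283 to 0.144 over 15 alternatives. Fitting only the 6 libraries of these groups left 0 members called, with 1 higher and 4 lower at an unadjusted p under 0.05. Tnfsf14 was then at -0.91 (adjusted p = 0.0109), short of the fold threshold only, and Fasl at -0.78 (adjusted p = 0.0649). Markers of CD8 T cells, which also make Fas ligand and should be absent after the CD4 sort, were set beside this. The summed level of Cd8a and Cd8b1 was 140 to 181 normalised counts after 0.8 µg and 45.7 to 75.8 after 80 µg at 12 h. Cd8a had means of 53.8 and 3.84, against 6.72 in the control, and Cd8b1 means of 108 and 52.6, against 125. The summed level of the NK cell markers was at most 5.87, with Klra8 at 0 after 0.8 µg. Of 7 dendritic cell markers, 4 were measured. Their sum was 20.6 to 27.1 after 0.8 µg and 5.48 to 9.72 after 80 µg, also with no overlap. After 0.8 µg this sum was Ccr9 alone, as Itgax, Flt3 and Zbtb46 were at 0. After 80 µg Ccr9 had 3.65 to 9.72 normalised counts and Itgax a mean of 0.61, with Flt3 and Zbtb46 at 0. The difference in this sum was thus one of Ccr9, which had a mean of 70.7 in the control. A single marker does not show a difference in dendritic cells. The part of these marker levels in the Fasl and Tnfsf14 values was not tested. At 4 h the CD8 sums were 57.2 to 111 and 76.5 to 84.5, and overlapped. Most of each was Cd8b1, as Cd8a had means of 4.54 and 3.13.

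At 24 h, Lta was the 1 member called between the doses, lower after 80 µg (log2 fold change -1.46 ± 0.236, SE, n = 3, adjusted p = 1.45e-07). The count was 0 higher (0.890% of all genes) and 1 lower (0.673%). At an unadjusted p under 0.05, 1 member, Cd40lg, was higher in DESeq2 and in edgeR, and edgeR called 0 higher. Tnf passed the adjusted p alone (-0.83 ± 0.257, adjusted p = 0.0268) and both thresholds without 0.8 µg 24 h replicate 3 (-1.01). Its adjusted p ranged from 0.01 to 0.294 over 15 alternatives and was above 0.05 without 0.8 µg 24 h replicate 1 or 2, without 80 µg 24 h replicate 2 or 3, with either other count filter and when only these groups were fitted. Tnfsf11 was not called (-1.09 ± 0.465, adjusted p = 0.17) but was without 80 µg 24 h replicate 3 (-2.24), the library with 14.8 normalised counts. The median of the members was -0.66, against 0.02 for all genes tested. Summed markers of other lymphocytes moved in the same direction at 24 h, with no overlap of the sums between the doses. The CD8 sum was 120 to 153 normalised counts after 0.8 µg and 81.1 to 113 after 80 µg, the B cell sum 111 to 139 and 30.2 to 80.0, and the sum of the 2 NK markers measured 11.4 to 18.5 and 0 to 6.58. Within the CD8 sum, Cd8a had means of 14.3 and 1.76. Those of Cd8b1 were 127 and 92.6, and its ranges overlapped. The part of these marker levels in the Lta value was not tested.

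**Figure D4:**
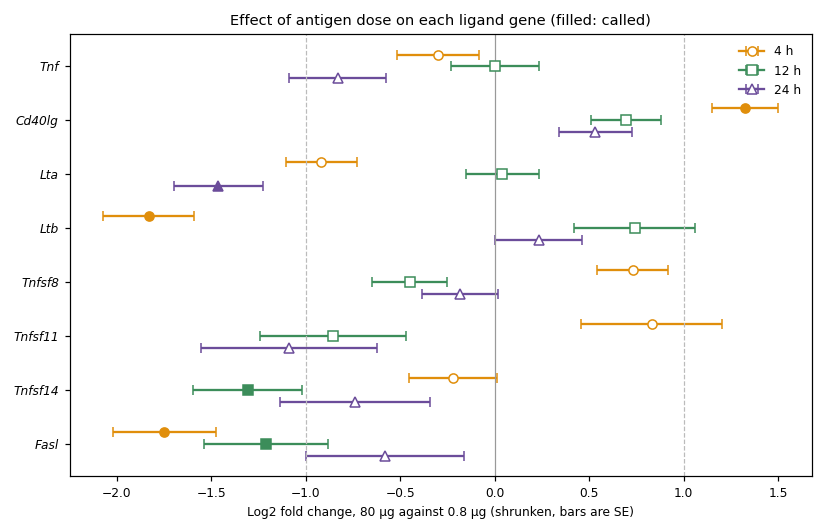
Shrunken log2 fold change of 80 µg against 0.8 µg (horizontal axis) for each of the 8 ligand genes (vertical axis) at 4 h (circles), 12 h (squares) and 24 h (triangles), with whiskers of 1 SE. Filled symbols passed both thresholds, and dashed lines mark the fold threshold of 1 in either direction. All 3 Cd40lg symbols are to the right of 0 (1.32, 0.69 and 0.53) and all 3 Fasl symbols to the left (-1.75, -1.21 and -0.58).

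Whether the dose effect differed between the times was tested by the interaction of dose and time in the 18 immunised libraries (DESeq2 likelihood ratio test). It passed for 4 of the 8 members, where 10.4% of all genes passed. They were Ltb (adjusted p = 1.57e-14), Lta (adjusted p = 3.53e-05), Tnfsf8 (adjusted p = 0.000891) and Tnfsf11 (adjusted p = 0.00969). The dose effect on Ltb was -1.83 at 4 h, 0.74 at 12 h and 0.23 at 24 h. That on Lta was -0.92, 0.04 and -1.46, and so was near 0 only at 12 h. Tnfsf8 went from 0.73 to -0.45 and -0.18, and Tnfsf11 from 0.83 to -0.86 and -1.09, with estimates that changed sign after 4 h. In the DESeq2 comparison of doses, Tnfsf8 did not pass at 12 or 24 h (adjusted p = 0.194 and 0.717). Tnfsf11 passed at none of the times (0.153, 0.21 and 0.17), and Ltb not at 12 or 24 h (0.17 and 0.694). The interaction shows that the effects differed, and a reversal after 4 h was not established. The test did not pass for Cd40lg (adjusted p = 0.0674), Tnfsf14 (0.0748), Tnf (0.175) or Fasl (0.298), which does not show that their dose effects were equal over time. Tnfsf11 did not pass without 0.8 µg 4 h replicate 2 (adjusted p = 0.0538). Cd40lg passed in edgeR (adjusted p = 0.0421) and without 0.8 µg 12 h replicate 1 or 3, 80 µg 12 h replicate 3 or 0.8 µg 24 h replicate 3 (0.0088 to 0.0271). Tnfsf14 passed without 80 µg 4 h replicate 3 or 80 µg 12 h replicate 3 (0.0403 and 0.0465). Over 23 alternatives the adjusted p ranged from 8.22e-06 to 0.0538 for Tnfsf11, from 0.0088 to 0.208 for Cd40lg and from 0.0403 to 0.294 for Tnfsf14.

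The decline of the transcripts was followed within each dose. Between 4 and 12 h most members fell. At 0.8 µg, 6 members were called lower (7.98% of all genes) and 0 higher (12.6%), with 0 higher also at an unadjusted p under 0.05 in DESeq2 and in edgeR, which called 0. The exceptions were Tnfsf8 (log2 fold change -0.84 ± 0.195, SE, n = 3, adjusted p = 0.000103) and Tnfsf11. Tnfsf8 passed the fold threshold without 0.8 µg 12 h replicate 3 (-1.07). Ltb changed most (-4.63 ± 0.294), followed by Fasl (-2.86 ± 0.286) and Tnf (-2.63 ± 0.225). At 80 µg, 7 members were called lower (9.10% of all genes) and 0 higher (15.7%), with 0 higher at an unadjusted p under 0.05 in both tools. Tnfsf14 changed most there (-3.04 ± 0.275, adjusted p = 2.35e-26), then Cd40lg (-2.51 ± 0.179) and Tnf (-2.33 ± 0.224), and Lta did not pass the fold threshold (-0.62 ± 0.191, adjusted p = 0.00418).

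From 12 to 24 h, 5 members were called lower and 1, Ltb, higher at each dose. The shares of all genes were 9.48% lower and 17.1% higher at 0.8 µg, and 10.5% lower and 16.7% higher at 80 µg. Tnf, Lta, Tnfsf11, Tnfsf14 and Fasl were the 5 at both doses. Lta fell by 1.03 ± 0.206 (SE, n = 3) on the log2 scale at 0.8 µg and by 2.53 ± 0.227 at 80 µg. At 0.8 µg the calls of Tnf and Lta rested on single libraries: without 0.8 µg 12 h replicate 3 they were -0.98 and -0.82, and 4 members were called. Without 0.8 µg 24 h replicate 3 they were -0.94 and -0.99, and without 0.8 µg 24 h replicate 2 Lta was -0.998. At 80 µg, Fasl was no longer called without 80 µg 24 h replicate 1 (-0.81, adjusted p = 0.0723, in a range of 0.00211 to 0.0819 over 15 alternatives) or when only these groups were fitted (-1.30, adjusted p = 0.0819). Cd40lg and Tnfsf8 changed by less than the fold threshold at both doses. At 0.8 µg, Cd40lg was at -0.51 (adjusted p = 0.024) with all libraries and at -0.20 (adjusted p = 0.415) without 0.8 µg 12 h replicate 3.

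The courses of the members were compared over the 7 group means of log2(normalised count + 1), as a description of 7 points. Tnf was most like Tnfsf14 (Pearson's r = 0.981) and Lta (0.950) among the members, and Cd40lg was most like Tnfsf8 (0.905). Ltb stood apart, with r between -0.51 and 0.06 against the other 7. Among the 8753 genes whose mean reached 20 normalised counts, the 2 most like Tnf were Smad2 (0.998) and Gm26692 (0.997), and those most like Tnfsf14 were Nr4a1 (0.994), an early TCR response gene of the same family as Nr4a3, and Ppip5k2 (0.993). For the other members they were Ctr9 (0.992) and Nup214 (0.991) for Lta, Aebp2 (0.981) and Pigm (0.981) for Cd40lg, and Klhdc3 (0.992) and Gm42515 (0.982) for Tnfsf8. They were Rxylt1 (0.996) and Sik1 (0.987) for Tnfsf11, Gm19353 (0.994) and Atp9b (0.988) for Fasl, and Zfp788 (0.985) and Rab11b (0.983) for Ltb.

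The receptors that bind the 8 ligands were partly measured in the same cells, with 8 of 9 genes past the count filter and Tnfrsf11b at 0 counts. Only 4 of the 8 had an adjusted p between the doses at 4 h and at 12 h, and 3 at 24 h. At 4 h, 2 of the 4 were called lower after 80 µg than after 0.8 µg (2.74% of all genes) and 0 higher (3.12%), with 0 higher at an unadjusted p under 0.05 in DESeq2. Tnfrsf1a, the death domain receptor of TNF, had a mean of 46.6 ± 6.32 normalised counts (SD, n = 3) after 0.8 µg and 11.2 ± 3.15 after 80 µg, against 120 ± 12.1 in the control (log2 fold change between doses -1.98 ± 0.339, adjusted p = 2.28e-07). Tnfrsf1b, the TNF receptor without a death domain, had 154 ± 16 and 69.5 ± 16.6, against 46.0 ± 16 in the control (-1.13 ± 0.292, adjusted p = 0.00175). The receptors were thus called in opposite directions against the control at 0.8 µg, Tnfrsf1a lower (-1.35 ± 0.264) and Tnfrsf1b higher (1.73 ± 0.303). Fas, the receptor of Fas ligand, was higher than the control at 4 h at both doses (1.84 ± 0.29 and 1.93 ± 0.289) with 133 ± 8.38 and 142 ± 14.8 normalised counts, and its dose difference did not pass the test (0.09 ± 0.263, adjusted p = 0.917). The call of Tnfrsf1b was lost without 80 µg 4 h replicate 3 (-0.99). At 12 and 24 h, 0 of the 4 and 0 of the 3 receptors with an adjusted p were called between the doses. At an unadjusted p under 0.05 in DESeq2, Tnfrsf1b and Fas were lower after 80 µg at 12 h, and at 24 h Tnfrsf1a was higher and Tnfrsf8 lower. Tnfrsf8 encodes CD30, the receptor of CD30 ligand, and had 19.6 to 31.0 normalised counts after 0.8 µg and 4.38 to 6.78 after 80 µg at 24 h. Its log2 fold change was -1.94 ± 0.688 (n = 3, unadjusted p = 0.00638 in DESeq2), with no adjusted p because independent filtering left it out.

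Of 10 other TNF receptor genes of lymphocytes, all measured and 8 with an adjusted p at each time, 1 was called higher and 1 lower between the doses at 4 h (3.12% and 2.74% of all genes) and at 12 h (1.83% and 0.960%), and 1 lower at 24 h (0.673%). Tnfrsf9 encodes the costimulatory receptor 4-1BB and was lower after 80 µg at all 3 times, at 743 against 1944 normalised counts at 4 h, 304 against 1099 at 12 h and 37.6 against 109 at 24 h. Its log2 fold changes were -1.34 ± 0.353 (SE, n = 3, adjusted p = 0.00225), -1.79 ± 0.355 (adjusted p = 3.02e-05) and -1.45 ± 0.375 (adjusted p = 0.00401). Tnfrsf4, which encodes OX40, went the other way at 4 h, with 634 against 306 normalised counts (1.04 ± 0.222, adjusted p = 6.83e-05). Tnfrsf25, the death domain receptor DR3, was higher after 80 µg at 12 h (1.07 ± 0.237, adjusted p = 0.000324). By the adjusted p alone, Tnfrsf25 was also higher at 24 h (0.99 ± 0.231, adjusted p = 0.00109) and Tnfrsf4 at 12 h (0.86 ± 0.219, adjusted p = 0.00286). Tnfrsf25 at 4 h (0.30, adjusted p = 0.48) and Tnfrsf4 at 24 h (-0.18, adjusted p = 0.791) did not pass the test. Leaving out 1 library ended the call of Tnfrsf9 at 24 h (-0.90 without 0.8 µg 24 h replicate 3), of Tnfrsf4 (0.94 without 0.8 µg 4 h replicate 3) and of Tnfrsf25 (0.83 without 0.8 µg 12 h replicate 3).

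Of the 10 other ligands of the family listed, 4 passed the count filter (Tnfsf4, Tnfsf9, Tnfsf10 and Tnfsf13b), and the remaining 6 had at most 5 counts in all. Tnfsf10 encodes the apoptosis-inducing ligand TRAIL and had a mean of 51.4 ± 7.43 normalised counts (SD, n = 3) in the control and of 3.64 ± 1.26 (0.8 µg) and 7.08 ± 4.85 (80 µg) at 4 h. It was called lower than the control at 4 and 12 h at both doses (log2 fold change -3.47 ± 0.515 and -2.73 ± 0.455 at 4 h), and was at 68.0 ± 6.6 and 72.1 ± 10.3 at 24 h. Between the doses, 0 of the 4 were called at any time, and only Tnfsf10 had an adjusted p there. At an unadjusted p under 0.05 in DESeq2, 1 was lower after 80 µg at 24 h, Tnfsf4. It had 0.93 to 10.3 normalised counts after 0.8 µg and 0 counts in the 3 libraries after 80 µg.

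All 20 genes of the adaptors, ubiquitin ligases and death machinery of TNF receptors were measured. Between the doses, 1 of the 20 was called at 4 h (3.12% of all genes higher and 2.74% lower), 1 at 12 h (1.83% and 0.960%) and 0 at 24 h (0.890% and 0.673%). Traf4 was higher after 80 µg at 4 h (337 against 163 normalised counts, 1.04 ± 0.231, n = 3, adjusted p = 0.000138). Tnfaip3, which encodes A20 and restrains NF-κB, was lower after 80 µg at 12 h (18.9 against 43.9, -1.21 ± 0.269, adjusted p = 0.000315). The call of Traf4 was lost without 0.8 µg 4 h replicate 1 (0.97) or 80 µg 4 h replicate 3 (0.96), and that of Tnfaip3 without 0.8 µg 12 h replicate 1 (-0.99). At 24 h, 2 of the 20 were higher and 1 lower at an unadjusted p under 0.05 in DESeq2. Against the control at 4 h, 3 were called higher (15% of the 20, beside 17.3% of all genes) and 4 lower (20%, beside 23.4%) at 0.8 µg. At 80 µg, 6 were higher (30%, beside 18.4%) and 3 lower (15%, beside 25.1%). Tnfaip3 had the highest fold change at both doses (3.88 ± 0.216 and 3.59 ± 0.216). At 12 h, 0 were called higher (17.2% and 17.8% of all genes), with 2 and 3 higher at an unadjusted p under 0.05 in DESeq2, and 6 were lower at 0.8 µg (30%, beside 20.5%) and 8 at 80 µg (40%, beside 20.1%). Of 7 genes for shedding and processing of ligands, 6 were measured, 5 had an adjusted p and 0 were called between the doses, with 1 higher and 1 lower at an unadjusted p under 0.05 in DESeq2 at 4 h and at 12 h and 0 at 24 h. Adam10, a sheddase, had 450 ± 40.1 normalised counts after 0.8 µg and 255 ± 19.2 after 80 µg at 4 h, and was lower after 80 µg by the adjusted p alone (log2 fold change -0.82 ± 0.126, n = 3, adjusted p = 4.34e-09). The same held at 12 h (-0.61 ± 0.135, adjusted p = 0.000343).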

How the data were processed

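The authors trimmed reads of the forward QuantSeq libraries with Bbduk, aligned them to GRCm38 with STAR 2.5.2a and assigned them to genes with HTSeq-count, and deposited the raw counts per gene and library. The annotation release and the strand setting of the counting step are not given in the sources used here. The authors also deposited log2 values, a regularised log transformation made with DESeq2, which served here only to match the members by name. Depth ranged from 2352800 to 6244279 counts per library. The floor of 3 counts covers counting error only, while SDs and the SEs of DESeq2 include the spread between mice.

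All 21 libraries were fitted in 1 DESeq2 1.42.0 model (R 4.3.3) with a coefficient per group, on genes with at least 10 counts. The normal prior of DESeq2 was used to shrink log2 fold changes, and p-values were adjusted by Benjamini-Hochberg over all genes with independent filtering. Replicates are separate mice. The 13 comparisons and the interaction were repeated with edgeR 4.0.16 and the other settings given in the closing section, and the fits were tested on simulated data. Named genes are the 8 members, list genes called between doses, the 2 genes most like each member, and checks (Nr4a3, Cd4, Cd3e). Gm42418 was not one of the planned checks. Tnfsf4, Tnfsf10, Tnfrsf8, Fas and Adam10 were named after their values were seen. The members and lists were chosen with earlier results of these data known. Replicate numbers were not used to pair the samples in the main fit. The correlation of same-numbered libraries ranged from -0.17 to 0.21. Differently numbered libraries were not compared, so a pairing by number was not tested. Sequences are from RefSeq (GRCm38.p6) and GENCODE vM21.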

Additional observations from a re-analysis of the deposited data

Results flagged for a closer look

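For 4 members the dose effect (80 µg against 0.8 µg) differed between 4, 12 and 24 h by the interaction test of DESeq2. The spread between the highest and the lowest of the 3 dose effects was 2.57 on the log2 scale for Ltb (adjusted p = 1.57e-14), 1.92 for Tnfsf11 (adjusted p = 0.00969), 1.5 for Lta (adjusted p = 3.53e-05) and 1.18 for Tnfsf8 (adjusted p = 0.000891).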

How the results depend on the processing

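With TMM library sizes, a stricter count filter or the replicate block, all 112 results kept their direction and their call or lack of one, by both thresholds together. The replicate block gave 3, 2 and 1 members called between doses at 4, 12 and 24 h, and 4 with an interaction. Same-numbered libraries correlated by -0.17 to 0.21. Differently numbered libraries were not compared, so this cannot decide whether the numbers pair the samples. With the adjusted p alone, 5 members passed between doses at 4 h and 2 at 24 h, and 4 (0.8 µg) and 3 (80 µg) against the control at 24 h. Fitting only the groups compared gave 0 at 12 h between doses and 0 at 24 h for 0.8 µg against the control, with 5 and 4 members at an unadjusted p under 0.05. Thinning to the smallest library gave 1 and 2 for these, edgeR gave 2 for the latter, and unshrunken values gave 2 for the latter and 1 for 80 µg at 24 h.

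Leaving out 1 library gave 3 to 4, 1 to 4 and 1 to 2 members between doses at 4, 12 and 24 h. Against the control it gave 6 to 7, 6 to 6 and 0 to 3 at 0.8 µg, and 8 to 8, 5 to 5 and 0 to 1 at 80 µg. From 4 to 12 h it gave 6 to 7 (0.8 µg) and 7 to 7 (80 µg), from 12 to 24 h 4 to 6 and 5 to 6, and 3 to 6 for the interaction. Of 768 results without 1 library, 716 kept their call, 13 lost it, 21 gained it and 18 changed sign, none of which was called.

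The signs that changed were of values near 0. Between doses at 12 h, Tnf was -0.016 when only those groups were fitted and Lta -0.095 after thinning. Without 1 library these ranged from -0.15 to 0.13 (Tnf) and from -0.065 to 0.26 (Lta). Against the control, the ranges were -0.068 to 0.25 for Tnfsf8 (0.8 µg, 24 h), -0.028 to 0.30 for Cd40lg (80 µg, 12 h) and, at 80 µg and 24 h, -0.45 to 0.13 for Tnf, -0.19 to 0.068 for Tnfsf8, -1.27 to 0.35 for Tnfsf11 and -0.12 to 0.55 for Tnfsf14. Tnfsf8 ranged from -0.31 to 0.061 from 12 to 24 h at 0.8 µg. The cause was not tested. The 9 results of list genes called between doses were put through the same alternatives, a choice made after seeing the data. They kept their direction in 135 of 135 fits and their call in 124, and Tnfrsf25 (0.82) and Tnfaip3 (-0.76) lost it when only the groups compared were fitted, as Tnfrsf25 (0.97) and Traf4 (0.92) did after thinning. Depth limits the members near the floor of 3 counts, which are Tnfsf11, Tnfsf14 and Fasl in the control and at 24 h.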
